A study of Homo sapiens with 4 samples.

Results

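ACHN, a human kidney cancer cell line in long use, was transfected by lipofection with siNC, a control siRNA, or with siPRR11, and RNA-seq was performed on 2 libraries of each. siPRR11 targets PRR11, a proline-rich protein tied to the cell cycle. All 4 libraries share the line, the medium with fetal bovine serum and the transfection reagent. Among the 36359 genes of the count table, the 10 genes described here are read in many cell types as transcriptional output and feedback of the ERK pathway, and they were picked by name as DUSP4, DUSP5, DUSP6, SPRY1, SPRY2, SPRY4, SPRED1, SPRED2, ETV4 and ETV5. The comparison asks how their mRNA levels stood when PRR11 was silenced. The study's methods list 2 siPRR11 duplexes, and the sources used here do not say which one each library received, nor the time after transfection.

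ERK is the last kinase of a cascade in which a growth factor receptor activates RAS, RAS activates RAF, and RAF activates MEK. Active ERK induces genes that switch the cascade off again. The DUSP proteins remove phosphates from MAP kinases, with DUSP6 acting on ERK in the cytoplasm and DUSP5 on ERK in the nucleus. Sprouty proteins (SPRY) restrain signaling between receptors and RAS, and SPRED proteins bring neurofibromin to the membrane, where it inactivates RAS. ETV4 and ETV5 are ETS transcription factors of the PEA3 group that rise with ERK activity. The counts carry mRNA levels only and no information on phosphorylation of ERK.

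Libraries held between 59003839 and 92612749 counted reads. PRR11, on chromosome 17, lay at 41.3 and 40.4 CPM (counts scaled to library size with TMM normalization) in siNC and at 15.3 and 14.0 CPM in siPRR11, so the knockdown was present in both siPRR11 libraries. Renal epithelial markers were found in all libraries, with PAX8 between 252.6 and 374.8 CPM and KRT8 between 1169 and 1498 CPM, and the sum of 6 such markers lay between 1937 and 2316 CPM in siNC and between 2152 and 2332 CPM in siPRR11. Of 8 markers of leukocytes, endothelium and fibroblasts, CD68 alone was above 1 CPM in every library, and PTPRC, CD3E, CDH5 and DCN were at 0 in at least 1 library. The sum of these 8 ran from 45.6 to 56.2 CPM in siNC and from 54.6 to 60.6 CPM in siPRR11. Libraries of a group are replicates by their labels, and nothing says that they came from separate cultures, so p-values measure the spread between these libraries. In bulk RNA a lower level can mean fewer cells with the transcript or less of it per cell, and these cannot be told apart.

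Silencing of PRR11 did not move the 10 genes together. SPRED2 and ETV4 fell, to 66.5% and 54.5% of the mean siNC level, and no gene of the 10 passed the test as higher. The test was edgeR's quasi-likelihood test over all 21630 genes with enough counts, with an adjusted p-value (Benjamini-Hochberg) under 0.05 as the call, and all 10 genes had enough counts to enter it. Thus 2 of 10 were called lower, where 9.14% of all tested genes were called lower, and 0 of 10 were called higher, where 7.61% were, with 16.7% called in either direction. At an unadjusted p under 0.05, 4 were lower and 1 was higher. The share of all tested genes at that unadjusted threshold was not computed, so this count is not read as a result about the 10 genes. DESeq2 also called 2 lower and 0 higher, beside 1861 lower and 1499 higher over all genes. With limma on log2(RPKM + 1) 0 were called in either direction, beside 684 lower and 1091 higher over all genes. The numbers over all genes were 1977 lower and 1645 higher with edgeR. The siPRR11 libraries both lay below both siNC libraries for 4 of the 10 genes (29.3% of all tested genes) and both above for 1 gene (29.1% of all). The median log2 fold change of the 10 genes was -0.24, beside 0.0022 over all genes tested. Counts of calls depended on single libraries, among the 10 genes and over all genes. The median log2 fold change of the 10 genes also depended on them. It was -0.38 without siNC library 1 and -0.40 without siPRR11 library 2. It was -0.14 without siNC library 2 and -0.12 without siPRR11 library 1.

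**Figure D1:**
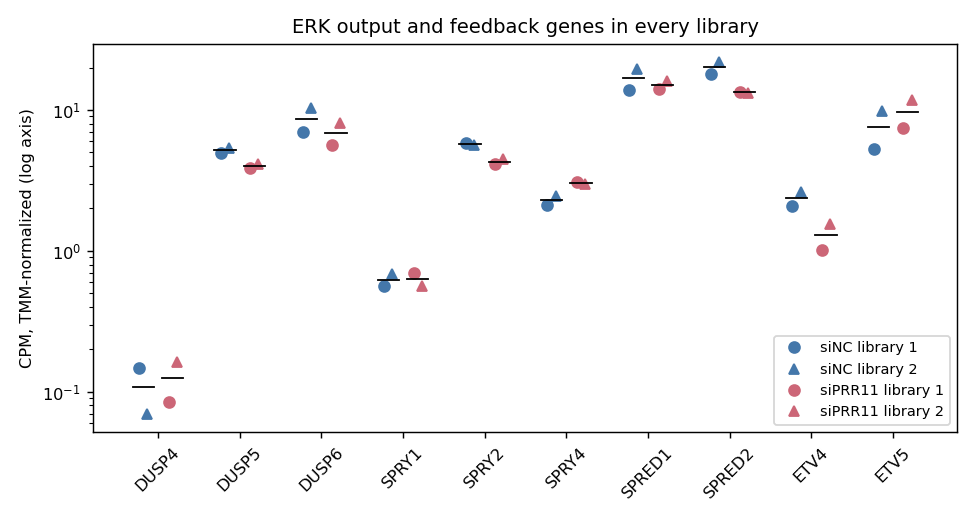
Level of each gene in CPM on a log axis, with 1 point per library (circle, library 1, and triangle, library 2) and a black bar at the group mean. SPRED2, ETV4, DUSP5 and SPRY2 have both siPRR11 points below both siNC points, SPRY4 has both above, and DUSP4 sits near 0.1 CPM.

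In control cells most of these genes were of moderate to low abundance. Per exonic length SPRED2 was the highest, at 3.83 ± 0.529 RPKM (reads scaled by exonic length and library total, SD, n = 2), which placed it at the 61.5 percentile of tested genes. SPRED1 (2.00 ± 0.473), DUSP5 (1.94 ± 0.119), SPRY2 (1.84 ± 0.0433), DUSP6 (1.84 ± 0.509) and ETV5 (1.28 ± 0.541 RPKM, SD, n = 2 each) followed. ETV5 was the lowest of these 5 genes in both siNC libraries, and the order among the other 4 was not resolved, since the libraries of neighbours overlapped. SPRED2 stood above all of them in both libraries. ETV4 at 0.643 ± 0.107 RPKM, SPRY4 at 0.380 ± 0.0372 RPKM, SPRY1 at 0.155 ± 0.0222 RPKM and DUSP4 at 0.0146 ± 0.0075 RPKM (SD, n = 2 each) came after them, each below the one before in both siNC libraries.

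To show the regulatory sequence of these genes, the 250 bases before each transcription start in RefSeq (GRCh38.p14) were searched on both strands. The table held 10 starts of 6 of the genes (SPRED1, SPRED2, SPRY1, SPRY2, SPRY4 and DUSP6), and DUSP4, DUSP5, ETV4 and ETV5 were not matched. CCGGAA, a form of the site bound by ETS factors, was found in 2 of the 10 windows and in 14.5% of all 35116 windows. Shorter forms such as GGAA were not searched. The AP-1 motif TGANTCA (6.57% of all windows), the cAMP response element TGACGTCA (1.65%) and the CIC motifs TGAATGAA (1.40%) and TGAATGGA (0.832%) were in none of the 10 windows, which says only that these letters are not in those bases. The stretches of SPRY1 and SPRY2 that hold CCGGAA are given in the direction of the gene, with CCGGAA in capitals. Beside them are the bases before a SPRED2 start, given because SPRED2 had the lowest adjusted p of the 10 genes. This SPRED2 stretch has no capitals because none of the searched motifs was found, although the shorter GGAA occurs in it. The stretches lie at chr4:123398249-123398385 on the plus strand, and at chr13:80341193-80341338 and chr2:65432600-65432745 on the minus strand.
SPRY1: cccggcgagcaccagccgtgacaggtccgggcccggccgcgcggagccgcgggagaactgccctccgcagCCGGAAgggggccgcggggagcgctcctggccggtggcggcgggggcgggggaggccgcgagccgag
SPRY2: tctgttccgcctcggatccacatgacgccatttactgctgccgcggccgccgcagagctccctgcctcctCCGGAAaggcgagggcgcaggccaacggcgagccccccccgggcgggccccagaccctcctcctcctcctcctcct
SPRED2: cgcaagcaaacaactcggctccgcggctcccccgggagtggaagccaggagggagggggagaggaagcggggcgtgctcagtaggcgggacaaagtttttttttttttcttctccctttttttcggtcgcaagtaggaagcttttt

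CCGGAA begins 67 bases before the start in SPRY1 and 142 bases before the start in SPRY2. This SPRY2 start lies upstream of the exons in the deposited annotation.

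SPRED2 had the lowest adjusted p of the 10 genes. This gene lies on the minus strand of chromosome 2 (chr2:65310851-65432637, GRCh38), and no exon of another gene in the deposited annotation covers it. It was counted at 18.1 and 22.0 CPM in siNC and at 13.4 and 13.3 CPM in siPRR11. The siPRR11 libraries nearly coincided and both lay under the siNC pair. The log2 fold change was -0.59 (standard error, SE, 0.111, edgeR adjusted p = 0.00399), with a 95% interval from -0.83 to -0.34. It stayed called in all 4 fits that left out 1 library, between -0.73 and -0.44. On the log2(RPKM + 1) scale limma gave -0.41 (adjusted p = 0.0722), so the call did not hold there.

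SPRED1, its paralog on the plus strand of chromosome 15, was counted at 13.9 and 19.6 CPM in siNC and at 14.1 and 16.0 CPM in siPRR11. The groups overlapped. The log2 fold change was -0.15, with a 95% interval from -0.46 to 0.16 (edgeR adjusted p = 0.537). It was -0.38 and called without siNC library 1 (edgeR adjusted p = 0.0163) and 0.11 without siNC library 2, so its sign depended on which siNC library was used. The RPKM ratio of SPRED1 to SPRED2 was 0.481 and 0.555 in siNC and 0.658 and 0.754 in siPRR11. Both siPRR11 ratios lay above both siNC ratios, by 0.45 on the log2 scale (SD 0.145 and 0.139, n = 2 each).

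**Figure D2:**
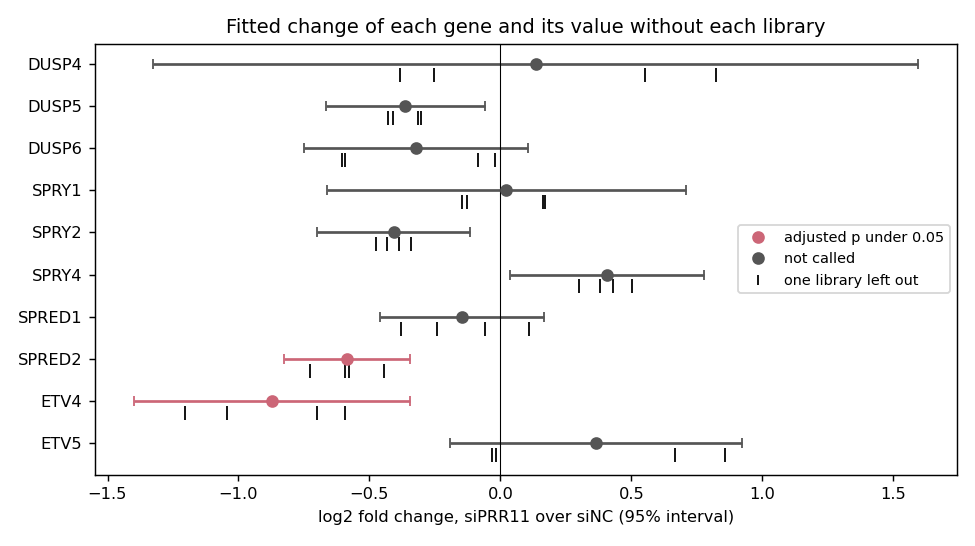
Log2 fold change of siPRR11 over siNC for each gene with its 95% interval from edgeR (red, adjusted p under 0.05), and as black ticks under it the values with 1 library left out. The ticks of SPRED2 and ETV4 all lie below 0, while those of DUSP4, SPRY1, SPRED1 and ETV5 fall on both sides of 0.

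Of the PEA3 factors, ETV4 fell and ETV5 did not pass the test. ETV4, on the minus strand of chromosome 17 (chr17:43527844-43579620), was counted at 2.08 and 2.64 CPM in siNC and at 1.02 and 1.56 CPM in siPRR11. Each siPRR11 library lay under each siNC library, although the libraries within a group also differed. The log2 fold change was -0.87 (SE 0.241, edgeR adjusted p = 0.0285, 95% interval from -1.40 to -0.34). The call was lost without siNC library 2 (-0.70, edgeR adjusted p = 0.0602) and without siPRR11 library 1 (-0.59, edgeR adjusted p = 0.195). It was also lost with limma on log2(RPKM + 1), where the change of this low gene was -0.27 (adjusted p = 0.102). Exons of DHX8, on the other strand and at 85.3 to 100.1 CPM, cover 1.89% of the exonic bases of ETV4.

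ETV5, on the minus strand of chromosome 3 (chr3:186046308-186110318), was counted at 5.29 and 9.81 CPM in siNC and at 7.40 and 11.9 CPM in siPRR11. The groups overlapped, and library 2 was higher than library 1 in each group. The log2 fold change of 0.36 had a 95% interval from -0.19 to 0.92 (edgeR adjusted p = 0.375). It rested on single libraries, with 0.86 (edgeR adjusted p = 0.000537) without siNC library 2, 0.67 (adjusted p = 0.00285) without siPRR11 library 1, -0.032 without siNC library 1 and -0.017 without siPRR11 library 2. Without a filter on low counts it passed as higher, with an adjusted p of 0.0457 from edgeR. Exons of DGKG, on the same strand and at 9.24 to 11.8 CPM, cover 2.83% of the exonic bases of ETV5. The RPKM ratio of ETV4 to ETV5 was 0.633 and 0.433 in siNC and 0.221 and 0.211 in siPRR11, a difference of -1.28 on the log2 scale (SD 0.388 and 0.0484, n = 2 each). It kept its sign with each library left out. ETV1, the remaining PEA3 gene, was at 0.155 and 0.395 RPKM in siNC and at 0.217 and 0.315 RPKM in siPRR11, with overlapping groups.

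None of the Sprouty genes passed the test, and SPRY2 and SPRY4 had changes of opposite sign. SPRY2, on the minus strand of chromosome 13 (chr13:80335976-80340951), was counted at 5.79 and 5.61 CPM in siNC and at 4.11 and 4.49 CPM in siPRR11. The groups did not overlap, and the log2 fold change was -0.41 (SE 0.134, 95% interval from -0.70 to -0.11), but its adjusted p of 0.0581 from edgeR's test missed the threshold. SPRY4, on the minus strand of chromosome 5 (chr5:142310427-142326455), was counted at 2.13 and 2.45 CPM in siNC and at 3.08 and 2.97 CPM in siPRR11. It was the single gene of the 10 with both siPRR11 libraries above both siNC libraries. Its log2 fold change was 0.41 (SE 0.17, 95% interval from 0.04 to 0.78), again without passing the threshold (edgeR adjusted p = 0.129). Both kept their sign with 1 library left out, at -0.47 to -0.34 for SPRY2 and 0.30 to 0.50 for SPRY4. SPRY1, on chromosome 4, rested on 46 and 40 counts in siNC and 66 and 48 in siPRR11. At 0.563 and 0.690 CPM against 0.70 and 0.561 CPM its groups overlapped fully, and its 95% interval from -0.66 to 0.71 leaves room for a change of either sign.

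SPRY2 made up 78.6% and 74.8% of the summed RPKM of the 4 Sprouty genes in siNC and 65.3% and 68.2% in siPRR11, and SPRY4 made up 14.8% and 16.7% in siNC and 25.1% and 23.1% in siPRR11. SPRY3 stayed at 2.15% or less. The summed level was 2.39 and 2.42 RPKM in siNC and 2.11 and 2.20 RPKM in siPRR11. The ratio of SPRY2 to SPRY4 was 5.31 and 4.47 in siNC and 2.60 and 2.95 in siPRR11, a log2 difference of -0.81 (SD 0.176 and 0.127, n = 2 each), which stayed between -0.94 and -0.69 without each library.

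Within the families 8 pairs of genes could be set against each other in this way, and the groups did not overlap for 5 of them. Groups also did not overlap for many single genes, with siPRR11 lower for 29.3% and higher for 29.1% of all tested genes, so 5 of 8 is not read as a result about these pairs. The exact two-sided permutation test over 2 against 2 libraries cannot give a p below 0.333, and this value (0.533 after Benjamini-Hochberg adjustment over the 8 pairs) was reached by these 5 pairs, so the ratios are given as values. The pairs were those of SPRED1 with SPRED2, ETV4 with ETV5 and all 3 among SPRY1, SPRY2 and SPRY4.

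**Figure D3:**
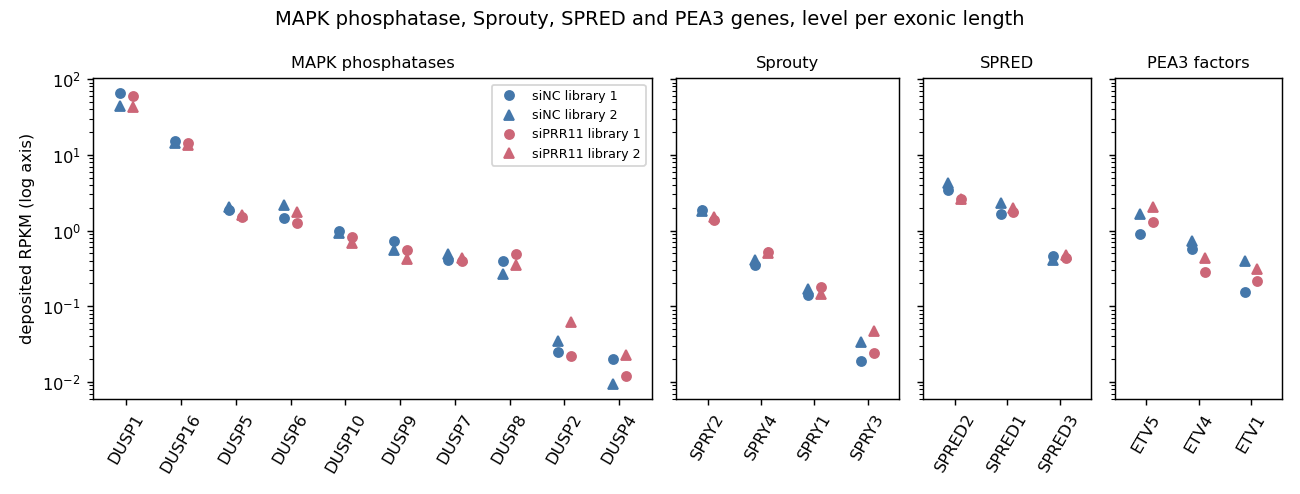
Deposited RPKM of the MAPK phosphatase, Sprouty, SPRED and PEA3 genes on a log axis, ordered by their level in siNC, with siNC in blue and siPRR11 in red. DUSP1 and DUSP16 stand far above DUSP5 and DUSP6, and DUSP4 is the lowest phosphatase gene.

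Of the MAPK phosphatases, none of DUSP4, DUSP5 and DUSP6 passed the test. DUSP5, on the plus strand of chromosome 10 (chr10:110497838-110511544), was counted at 4.94 and 5.40 CPM in siNC and at 3.88 and 4.15 CPM in siPRR11. Its groups did not overlap. The log2 fold change was -0.36 (SE 0.139, 95% interval from -0.67 to -0.06), and the adjusted p was 0.0995 from edgeR's test. Leaving out any library gave -0.43 to -0.30.

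DUSP6, on the minus strand of chromosome 12 (chr12:89347232-89353271), was counted at 6.95 and 10.3 CPM in siNC and at 5.66 and 8.10 CPM in siPRR11. The groups overlapped, because library 2 was higher than library 1 in each. The log2 fold change of -0.32 had a 95% interval from -0.75 to 0.11 (edgeR adjusted p = 0.299). It was called at -0.59 without siNC library 1 (edgeR adjusted p = 0.00437) and at -0.60 without siPRR11 library 2 (adjusted p = 0.018), but was -0.020 without siNC library 2 and -0.085 without siPRR11 library 1. The counting of DUSP6 is uncertain as well. On the opposite strand lies a gene that shares 40.5% of the exonic bases of DUSP6, and 83.1% of the exonic bases of that gene lie in those of DUSP6. Its counts were 0.799, 0.768, 0.798 and 0.792 times those of DUSP6 in siNC 1, siNC 2, siPRR11 1 and siPRR11 2. The kit was stranded, but whether strand was used in the counting is not given in the sources used here, so reads of both genes cannot be told apart.

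DUSP4, on chromosome 8, was close to absent in these cells. It had 12 and 4 counts in siNC and 8 and 14 in siPRR11, which is 0.0690 to 0.164 CPM. No change of DUSP4 was detectable at this depth, since the 95% interval of the log2 fold change ran from -1.33 to 1.60.

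DUSP1 and DUSP16, paralogs outside the 10 genes, made up most of the phosphatase transcripts. DUSP1 held 71.5% ± 5.72 (SD, n = 2) and DUSP16 held 17.6% and 22.4% of the summed RPKM of the 10 MAPK phosphatase genes in siNC cells, against 2.64% ± 0.699 for DUSP5, 2.54% ± 1.19 for DUSP6 and 0.0187% ± 0.006 for DUSP4. In siPRR11 cells DUSP1 held 72.4% ± 3.98 (SD, n = 2) and DUSP16 held 18.4% and 21.7%. Of the 10 paralogs in the 4 families (DUSP1, DUSP2, DUSP7, DUSP8, DUSP9, DUSP10, DUSP16, SPRY3, SPRED3 and ETV1), 9 could be tested and 0 were called by edgeR or DESeq2. DUSP10 alone had an unadjusted p under 0.05, with a log2 fold change of -0.40 (edgeR adjusted p = 0.155). DUSP1 had a log2 fold change of -0.15, which ran from -0.42 to 0.17 with 1 library left out and was called at -0.42 without siNC library 2 and at -0.40 without siPRR11 library 1. ETV1 was called without siNC library 1 (-0.63) and, in the opposite direction, without siNC library 2 (0.72).

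The libraries of a group differed in the same direction in siNC and siPRR11 for DUSP6 and ETV5. Library 2 exceeded library 1 of its group by at least 0.5 on the log2 scale in both groups for DUSP6 (0.57 in siNC and 0.52 in siPRR11) and ETV5 (0.89 and 0.68). This held for 2 of the 8 genes with a mean of at least 1 CPM, and for 42 of 15826 tested genes at that level (0.265%). The step of 0.5 was chosen after values had been seen, and DUSP6 passed it narrowly in siPRR11. ETV4 (0.34 in siNC and 0.61 in siPRR11), SPRED1 (0.49 and 0.18) and DUSP5 (0.13 and 0.096) also had library 2 higher in both groups. SPRED2 (0.28 and -0.015), SPRY2 (-0.046 and 0.13) and SPRY4 (0.20 and -0.051) did not share a direction between the groups. Neither did SPRY1 (0.29 and -0.32) and DUSP4 (-1.09 and 0.95), which were below 1 CPM. Outside the 10 genes, the paralog ETV1 (1.35 and 0.54) had library 2 higher by at least 0.5 in both groups. Of 10 further genes read as ERK output, 1 was higher by this step in both groups, CCND1 (0.73 and 0.60). In the same list 1 was lower by this step in both groups, HBEGF (-0.86 and -0.76). Immediate early genes, which ERK induces within minutes of a stimulus, mostly had library 2 lower. Library 2 was lower by at least 0.5 in both groups for 4 of 6 of them, FOS, JUNB, EGR1 and IER2, against 0.524% of the tested genes with a mean of at least 1 CPM. FOS was at 9.62 and 1.79 CPM in siNC and at 8.38 and 1.73 CPM in siPRR11, and EGR1 at 12.2 and 4.66 CPM and at 10.8 and 4.35 CPM. The labels give no date or batch for the libraries. With the replicate number as a block, edgeR called DUSP6 at -0.32 (adjusted p = 0.00791) and ETV5 at 0.37 (adjusted p = 0.00126). That block assumes that libraries of the same number belong together, which the labels do not say. What made libraries 1 and 2 differ was not tested.

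**Figure D4:**
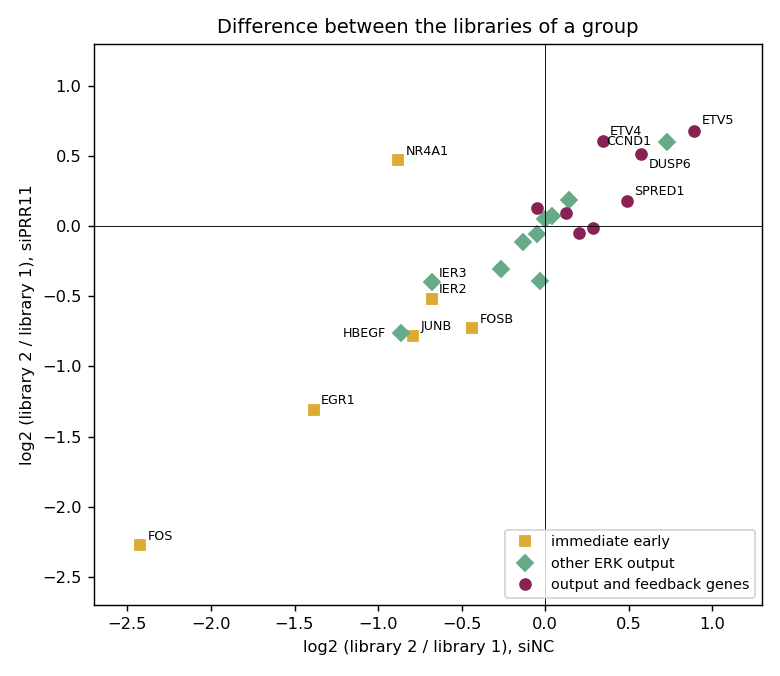
Log2 ratio of library 2 to library 1 in siNC (horizontal axis) and in siPRR11 (vertical axis) for genes with a mean of at least 1 CPM. FOS and EGR1 lie far to the lower left, HBEGF lies to the lower left, and ETV5, CCND1 and DUSP6 lie to the upper right. The difference between libraries thus has the same direction in both groups for these genes.

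Other genes of the pathway were read from lists of gene names. Among 10 further genes read as ERK output, 5 fell, 1 rose and 4 did not pass. Over all tested genes 9.14% were called lower and 7.61% higher. The list was chosen with earlier results of these data known, so its share is not an independent comparison with all genes. DESeq2 called 3 of the list lower and 1 higher, and limma on log2(RPKM + 1) called 3 lower and 0 higher. MYC, a growth-promoting transcription factor, fell from 73.5 and 81.0 CPM in siNC to 39.0 and 44.5 CPM in siPRR11, a log2 fold change of -0.89 (SE 0.0901, edgeR adjusted p = 9.23e-05), and leaving out any library gave -0.98 to -0.79. SPHK1, which makes sphingosine 1-phosphate, fell by 0.82 on the log2 scale from 2.01 and 1.97 CPM to 1.27 and 0.970 CPM. CCND1, the gene of cyclin D1, was at 142.8 and 237.1 CPM in siNC and at 90.9 and 138.1 CPM in siPRR11, with a log2 fold change of -0.73 (edgeR adjusted p = 0.0326). The calls of SPHK1 and CCND1 were lost with DESeq2 (adjusted p = 0.0613 and 0.306), that of SPHK1 also without siPRR11 library 2 (-0.64) and that of CCND1 without siNC library 2 (-0.32). FOSL1 and LIF were the other genes called lower, and EPHA4 was the gene called higher. The number called higher in this list also depended on the library left out, as did that over all genes. PHLDA1 and EPHA2, which belong with CCND1, EPHA4 and 6 of the 10 genes above to a commonly used score of MAPK activity, had log2 fold changes of 0.12 and 0.08 without passing the test.

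None of the 8 immediate early genes was called by edgeR or DESeq2, 7 of them could be tested, and 0 had an unadjusted p under 0.05. Their calls followed the library left out, and the numbers called over all genes also moved between these fits. Calls were higher without siNC library 1 or siPRR11 library 2, and lower without siNC library 2 or siPRR11 library 1. Without a filter on low counts 1 was called higher, beside 2066 over all genes.

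Calls in the cascade itself were about as frequent as over all tested genes (9.14% lower and 7.61% higher). Of 19 genes of adaptors, RAS, RAF, MEK, ERK and scaffolds, 2 fell, 2 rose and 15 did not pass, with a median log2 fold change of 0.0064. NRAS fell from 47.1 and 50.4 to 33.9 and 32.4 CPM, a log2 fold change of -0.55 (SE 0.0831, edgeR adjusted p = 0.00105), and SOS1, an exchange factor that loads RAS with GTP, fell by 0.40. BRAF rose by 0.51 from 22.5 and 30.2 to 34.7 and 40.1 CPM. SHC1 was the other gene called higher. With limma on log2(RPKM + 1) the calls of BRAF and SOS1 were lost (adjusted p = 0.110 and 0.091). The numbers called lower and higher here also depended on the library left out, as did those over all genes.

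Among 12 inhibitors of RAS and ERK signaling, RASA1 and RASA2, GTPase-activating proteins of RAS, fell, by 0.34 and 0.48 on the log2 scale. RASAL2 rose by 0.33, and 9 genes did not pass, so 2 of 12 were called lower and 1 of 12 higher beside 9.14% and 7.61% of all tested genes. NF1, the gene of the neurofibromin that SPRED proteins recruit, was at 64.4 and 78.4 CPM in siNC and at 72.7 and 71.5 CPM in siPRR11, with overlapping groups. The calls in this list depended on single libraries, as did the numbers called over all genes. With 1 library left out, the log2 fold change of RASA1 ran from -0.49 to -0.18. That of RASA2 ran from -0.58 to -0.40, and that of RASAL2 from 0.29 to 0.38.

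**Figure D5:**
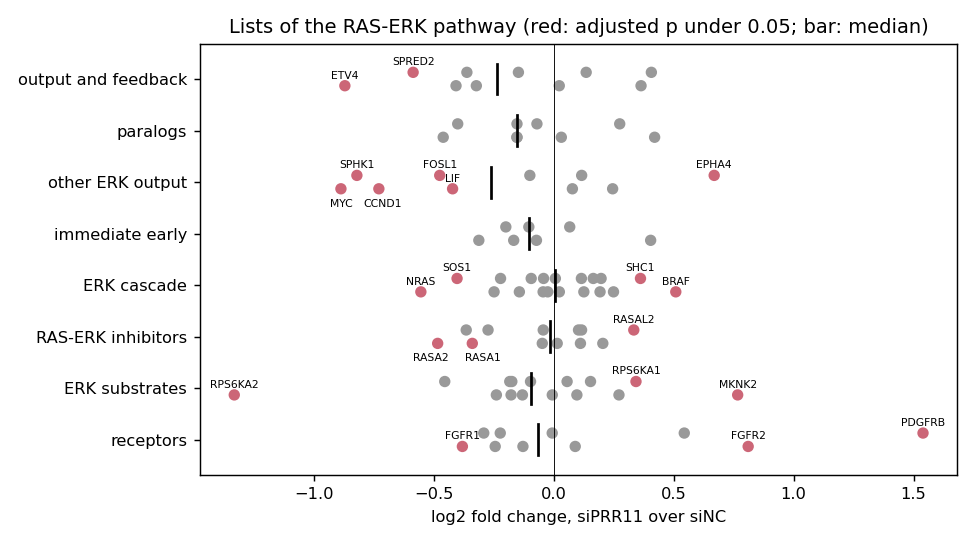
Log2 fold change of siPRR11 over siNC of every tested gene in the lists (1 point per gene, red for an adjusted p under 0.05), with a black bar at the median of each list. Called genes lie on both sides of 0 in the cascade, the inhibitors, the substrates and the receptors, and mostly below 0 among the further output genes.

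Of 15 substrates of ERK, 1 fell, 2 rose and 12 did not pass, a number of calls near the 16.7% over all tested genes. RPS6KA2, which encodes a kinase of the RSK family, fell from 4.27 and 4.92 to 1.65 and 1.99 CPM, a log2 fold change of -1.33 (SE 0.172, edgeR adjusted p = 0.00041). MKNK2, a kinase that phosphorylates the translation factor eIF4E, rose by 0.77 from 16.1 and 15.9 to 26.5 and 27.8 CPM. RPS6KA1, another RSK gene, rose by 0.34, but was not called without either siPRR11 library. CIC, a repressor of ETV4 and ETV5 that ERK inactivates, was at 77.1 and 72.2 CPM in siNC and at 84.3 and 75.4 CPM in siPRR11, with overlapping groups. How many of these genes were called depended on the library left out, as did the numbers over all genes. Upstream, 1 of 10 receptor genes fell and 2 rose, beside 9.14% and 7.61% of all tested genes. PDGFRB rose by 1.54 and FGFR2 by 0.81 on the log2 scale, and FGFR1 fell by 0.38, a call that was lost without siPRR11 library 1 (edgeR adjusted p = 0.0504). DESeq2 called 3 receptor genes lower, beside 1861 over all genes. The numbers of receptor genes called lower and higher also depended on the library left out.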

How the data were processed

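According to the study's methods and the submitters' processing notes, stranded mRNA libraries were sequenced, reads were trimmed (Trimmomatic 0.36), aligned to GRCh38 with STAR and assigned to genes with featureCounts (Subread 1.5.1). The authors deposited raw read counts per gene, with exons and exonic length, and RPKM values of the same genes. Neither the annotation release nor strand handling by the counter is given in the sources used here. In this work, edgeR 4.0.16 (R 4.3.3) was fitted to the counts of all 4 libraries with TMM normalization, filterByExpr and condition as the only term, and p-values were adjusted over all genes tested. It was tested on simulated data. RPKM values served for levels between genes and for limma 3.58.1 with a variance trend and pseudocounts of 1 and 0.1. Other alternatives were DESeq2 1.42.0, RLE normalization, no count filter, at least 10 counts in every library, a replicate term, and each library left out, where the lone library of a group is assumed to vary like the others. SD is between 2 libraries. Precision is set by the spread between libraries, which edgeR's test estimates for each gene with help from the other genes. DUSP4 and SPRY1 are the exception, since they have few counts. The genes and lists were chosen with earlier results of these data known. Besides PRR11 and the 10 genes, the text names all tested paralogs and, per list, the 3 called genes of at least 1 CPM with the largest absolute log2 fold change. All others are named after their values were seen. Results on some genes of the lists are not reported here.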

Additional observations from a re-analysis of the deposited data

How the results depend on the processing

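Over all genes, 3622 were called by edgeR, 45.4% of them higher in siPRR11, and between 2172 and 4590 with each library left out. With the replicate number as a block, 6988 of the 21630 tested genes were called, 3650 lower and 3338 higher. The labels do not say that a number marks a shared culture or day. Differences between libraries 1 and 2 correlated at 0.388 between the groups across tested genes, and what this reflects was not tested. Under this block 5 of the 10 genes were called lower and 2 higher. limma called 1775 genes on log2(RPKM + 1), 61.5% of them higher, and 1878 on log2(RPKM + 0.1), and 0 of the 10 genes as lower under both. The number called lower ran from 1 to 4 and the number called higher from 0 to 1 with each library left out, and 1 gene was called higher without a filter on low counts. The median of the 10 log2 fold changes was -0.24, and it was -0.31 with at least 10 counts in every library, where DUSP4 was not tested, -0.12 with limma on log2(RPKM + 1), and between -0.40 and -0.12 with each library left out. The sign changed between libraries left out for DUSP4 (-0.38 to 0.82), SPRY1 (-0.15 to 0.17), SPRED1 (-0.38 to 0.11), ETV5 (-0.032 to 0.86), DUSP1 (-0.42 to 0.17), SPRY3 (-0.15 to 0.87), SPRED3 (-0.051 to 0.12) and ETV1 (-0.63 to 0.72), and ETV1 was at 0.028 with limma on log2(RPKM + 0.1). The cause of these changes was not tested. RLE normalization and DESeq2 changed no call among the 10 genes. Low counts limit what can be said of DUSP4 and SPRY1.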
